A study of Mus musculus with 6 samples.

Results

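The genes described here make fatty acids, lengthen and desaturate them, and build them into the triglycerides, wax esters and sterol esters of sebum and epidermal lipid. They were chosen as a list of 38 gene symbols by function, with earlier results of these data known, and the rule uses no measured ratio. Of these, 35 had a row among the 22879 rows tested, and Acsl1, Awat1 and Soat1 had none and were not analysed here. Skin of 3 wild-type (WT) mice was compared with skin of 3 mice carrying the LynDN transgene of the Src family tyrosine kinase Lyn, which the series title writes as LynDeltaN. Total RNA was hybridised to 2-colour arrays, and each of 3 mouse pairs was run on 2 arrays with the dyes exchanged. LynDN mice 1, 2 and 3 were set against WT mice 1, 3 and 2, and the pairs are numbered here by their LynDN mouse. The labels used here give no strain, age, skin site or transgene promoter.

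Each value is a deposited log ratio between the channels of an array, taken as base 2 because its base is not stated. The genotype in the numerator is not stated either, so a positive ratio here means the side on which the inflammatory alarmin genes S100a8 and S100a9 lay. These had mean log2 ratios of 4.61 ± 0.12 and 5.54 ± 0.16 (SD, n = 3 pairs) and were positive on 6 of 6 arrays. If the WT channel were the numerator, every sign below would turn at once. No spot intensity was used, so the ratios say nothing of how abundant a transcript was, and the presence of skin cell types could not be checked by level. In whole skin, fewer cells of a type and less RNA per cell cannot be told apart. The number of mouse pairs (n = 3) limits the precision, since both arrays of a pair carry RNA of the same mice.

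Fatty acid synthesis starts from cytosolic citrate, which is cleaved to acetyl-CoA, carboxylated to malonyl-CoA and condensed by fatty acid synthase into palmitate. Elongases and desaturases then shape the chain, and acyl-CoA synthetases activate fatty acids for use in membranes, triglycerides and esters. In skin this work is shared by sebocytes, whose sebum holds wax esters, diglycerides and triglycerides, by keratinocytes, which need very long chains for the water barrier, and by dermal adipocytes.

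The fatty acid and sebaceous genes as a list lay close to zero. Their median log2 ratio was -0.02, beside -0.01 over all rows, with 15 members positive and 20 negative, where 43.9% of all rows were positive and 56.1% negative. The list medians were 0.00, 0.02 and -0.06 in pairs 1, 2 and 3. In limma on the 3 pair values, 0 of 35 members passed at an adjusted p of 0.05, where 0.0175% of all rows passed. The smallest adjusted p among members was 0.237. With the 6 arrays fitted and the mouse pair as a block, 1 member passed, the fatty acid-binding protein gene Fabp5. In that fit 1.06% of all rows passed in either direction, and 0.603% of all rows passed on the positive side. At an unadjusted p of 0.05, 5 members were positive (Fabp5, Far1, Elovl3, Dgat2l6 and Elovl7) and 4 negative (Dgat2, Elovl5, Scd2 and Acsl3), which is 14.3% and 11.4% of members beside 5.92% and 6.41% of all rows. On 6 of 6 arrays, 3 members were positive (Fabp5, Far1 and Elovl3) and 3 negative (Scd2, Elovl5 and Dgat2), where 3.72% and 4.31% of all rows were. Far1 belongs there through the average of 2 probes, neither of which was positive on all arrays. The typical size of a member's mean ratio was 0.12 (median absolute value) beside 0.06 over all rows, and 2 members, Fabp5 and Scd2, reached an absolute mean of 0.5, as did 2.23% of all rows.

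The intervals bound the mean deposited ratio of single genes, and not the change in the transcript itself. No intensities were used, so a probe near background could give a ratio near zero with a narrow interval. The 95% interval from limma, not adjusted for the number of genes, lay inside 2-fold in either direction for 33 of 35 members, and inside 1.5-fold for 29. The interval included 0 for 26 members. Of the 35 means, 31 lay within the central 95% of all rows, from -0.31 to 0.37, and the other 4 were Fabp5, Scd2, Dgat2 and Elovl5. Far1 is counted by the average of 2 probes, the first of which, with a mean of 0.62, lay outside that range and beyond 1.5-fold.

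**Figure D1:**
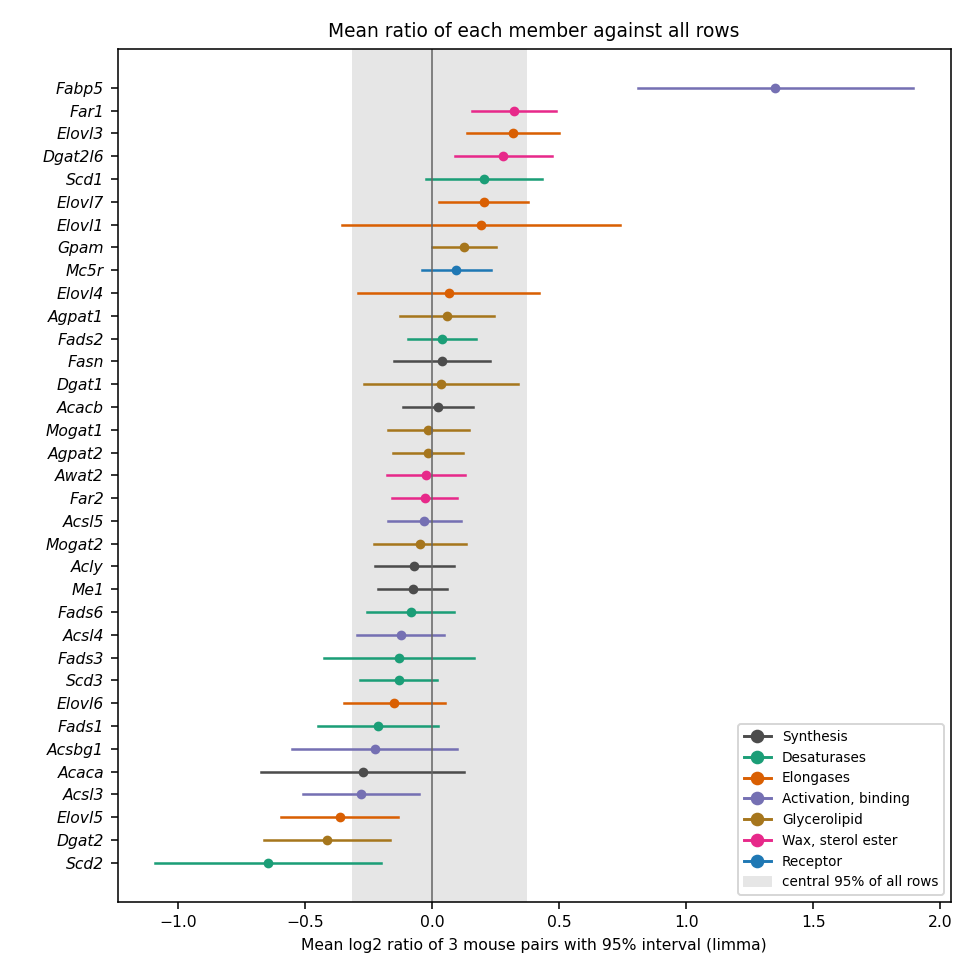
Mean log2 ratio of each of 35 members over 3 mouse pairs (points) with its 95% interval from limma (lines), coloured by role, and the central 95% of all rows' means (grey band, -0.31 to 0.37). Fabp5 lies alone at 1.35, and Scd2 is lowest at -0.65.

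Among the genes that activate and carry fatty acids, Fabp5 stood furthest from zero. Fabp5 encodes the epidermal fatty acid-binding protein, which carries long chains within keratinocytes and is a known marker of psoriatic epidermis. It gave 0.48 and 0.95 in pair 1, 1.71 and 1.80 in pair 2, with 1.63 and 1.54 in pair 3, with the array that held LynDN in Cy3 first, as in each such listing here. It was positive on every array, and both arrays of pair 1 lay below all 4 arrays of the other pairs. The mean was 1.35 ± 0.56 (SD, n = 3), or 2.55-fold with a 95% interval of 0.81 to 1.89 on the log2 scale. It did not pass in limma on the pair values (adjusted p = 0.237). It passed with the mouse pair as a block (adjusted p = 0.0254), where 1.06% of all rows passed. After quantile normalization it passed (adjusted p = 0.0224) among 72 of 22879 rows. Without pair 1 it passed (adjusted p = 0.00125), as did 4.88% of all rows, but that fit rests on pairs 2 and 3 and leaves out the lowest Fabp5 value. The block fit gives every row the same correlation, so its pass is weaker for Fabp5, which varied mostly between pairs. By mean ratio it ranked 73 of 22879 rows. Markers of differentiated epidermis gave a median of -0.46 over 11 genes, with 7 negative and 4 positive, on the opposite side from Fabp5. Their part in the Fabp5 ratio was not tested.

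The 4 measured acyl-CoA synthetases were all negative in mean and small. Acsl3, which activates long-chain fatty acids at lipid droplets, gave 0.03 and -0.20 in pair 1, -0.67 and -0.30 in pair 2, with -0.24 and -0.30 in pair 3. It was negative on 5 of 6 arrays and averaged -0.28 ± 0.20 (SD, n = 3; limma adjusted p = 0.346). Acsl4, which prefers arachidonate, averaged -0.12 ± 0.13, and Acsl5 averaged -0.03 ± 0.07. Acsbg1, a very long chain acyl-CoA synthetase, averaged -0.23 ± 0.32 and was uneven, at -0.54, 0.10 and -0.24 in pairs 1, 2 and 3. None of these synthetases passed in either fit.

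The core enzymes that make palmitate were near zero. Fasn, the synthase itself, gave 0.28 and 0.14 in pair 1, 0.17 and -0.19 in pair 2, with 0.02 and -0.18 in pair 3. The arrays lay on both sides of zero, and the mean was 0.04 ± 0.15 (SD, n = 3) with a 95% interval of -0.15 to 0.23. Acly, which cleaves citrate, averaged -0.07 ± 0.10, and Me1, the malic enzyme that supplies NADPH, averaged -0.08 ± 0.06. Acacb, the acetyl-CoA carboxylase of the mitochondrial surface, averaged 0.02 ± 0.06.

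Acaca, the cytosolic carboxylase that supplies malonyl-CoA for synthesis, showed the lowest mean of this group, -0.27 ± 0.40 (SD, n = 3), and its value rested on 1 spot. The first of its 2 probes gave -2.38 on 1 array of pair 3 (LynDN in Cy3), while its other 5 arrays ran from -0.01 to 0.23. The second probe was negative on all 6 arrays but small, from -0.31 to -0.09, with a mean of -0.20. Neither probe passed when each probe was tested as its own row (limma adjusted p = 0.628 and 0.305). Of the 5 synthesis genes, 0 had an unadjusted p under 0.05 by their probe average. The second Acaca probe alone had an unadjusted limma p of 0.017.

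The desaturases, which put double bonds into the chain, were negative in 5 of 7 members. Scd2, a stearoyl-CoA desaturase that makes monounsaturated fatty acids and is strong in young skin and in brain, was the lowest of all members. Its log2 ratios were -0.23 and -0.07 in pair 1, -0.77 and -0.76 in pair 2, with -1.08 and -0.96 in pair 3. It was negative on every array, and the arrays of pair 1 lay nearest to zero. The mean was -0.65 ± 0.45 (SD, n = 3), which is 1.56-fold. Scd2 did not pass in limma on the pair values (adjusted p = 0.307) or with the pair as a block (adjusted p = 0.0843). It passed without pair 1, at -0.89 (adjusted p = 0.0105). In that fit of pairs 2 and 3, 3 members passed, Fabp5 positive and Scd2 and Elovl5 negative, while 4.88% of all rows passed, 3.22% positive and 1.67% negative.

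Scd1 and Scd3, the close paralogs of Scd2 that sebocytes are known to express, lay nearer to zero. Scd1 gave -0.04 and 0.14 in pair 1, 0.72 and 0.15 in pair 2, with 0.03 and 0.23 in pair 3. It was positive on 5 of 6 arrays, and its highest array, at 0.72, stood apart from the dye swap of the same mice, at 0.15. Its mean was 0.20 ± 0.20 (SD, n = 3; limma adjusted p = 0.441). Scd3, which is largely restricted to the sebaceous gland in skin, had a mean of -0.13 ± 0.09. Its arrays with LynDN in Cy3 gave 0.04, -0.10 and 0.15, and all arrays of the opposite dye were negative, at -0.25, -0.36 and -0.27. The difference between Scd2 and its paralogs was not tested, and probes of such close paralogs can cross-hybridise.

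The front-end desaturases of polyunsaturated fatty acids were small in ratio. Fads1, the delta-5 desaturase, gave 0.05 and 0.01 in pair 1, -0.31 and -0.44 in pair 2, with -0.16 and -0.43 in pair 3. Pair 1 was near zero and the other 4 arrays were negative, for a mean of -0.21 ± 0.21 (SD, n = 3; limma adjusted p = 0.439). Fads2, the delta-6 desaturase, which makes sapienate in human sebum, averaged 0.04 ± 0.05. Fads3 and Fads6 averaged -0.13 ± 0.28 and -0.08 ± 0.12.

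The elongases were divided, with 4 positive and 2 negative means. Elovl3, which makes very long saturated and monounsaturated chains and is expressed in sebaceous glands and hair follicles, gave 0.34 and 0.04 in pair 1, 0.57 and 0.37 in pair 2, with 0.50 and 0.09 in pair 3. All arrays were positive, and in each pair the array with LynDN in Cy3 was the higher. The mean was 0.32 ± 0.14 (SD, n = 3; limma adjusted p = 0.278, and 0.0685 with the pair as a block). Elovl7 averaged 0.20 ± 0.13, with 1 array of pair 1 at -0.01 and the highest array, 0.41, in pair 2 (limma adjusted p = 0.362). It lengthens saturated long chains.

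Elovl5, which lengthens polyunsaturated chains, lay on the other side. It gave -0.19 and -0.08 in pair 1, -0.47 and -0.37 in pair 2, with -0.46 and -0.60 in pair 3. Every array was negative, and both arrays of pair 1 were closer to zero than the other 4. The mean was -0.36 ± 0.21 (SD, n = 3; limma adjusted p = 0.291, and 0.0839 with the pair as a block), and without pair 1 it passed at -0.48 (adjusted p = 0.0286). Elovl6, which takes palmitate to stearate, averaged -0.15 ± 0.16.

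Elovl1 and Elovl4, the elongases of ceramide-bound very long chains in the epidermal barrier, differed between pairs. Elovl1 gave 0.26 and -0.99 in pair 1, 1.17 and 0.35 in pair 2, with 0.55 and -0.19 in pair 3. In every pair its array with LynDN in Cy5 was the lower, and the arrays of pair 1 differed by 1.25, the widest gap within a dye swap of any member once probes were averaged. Its mean of 0.19 ± 0.56 (SD, n = 3) carried a 95% interval of -0.36 to 0.74. Elovl4 averaged 0.07 ± 0.35, made up of -0.33 in pair 1 and 0.35 and 0.17 in pairs 2 and 3.

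**Figure D2:**
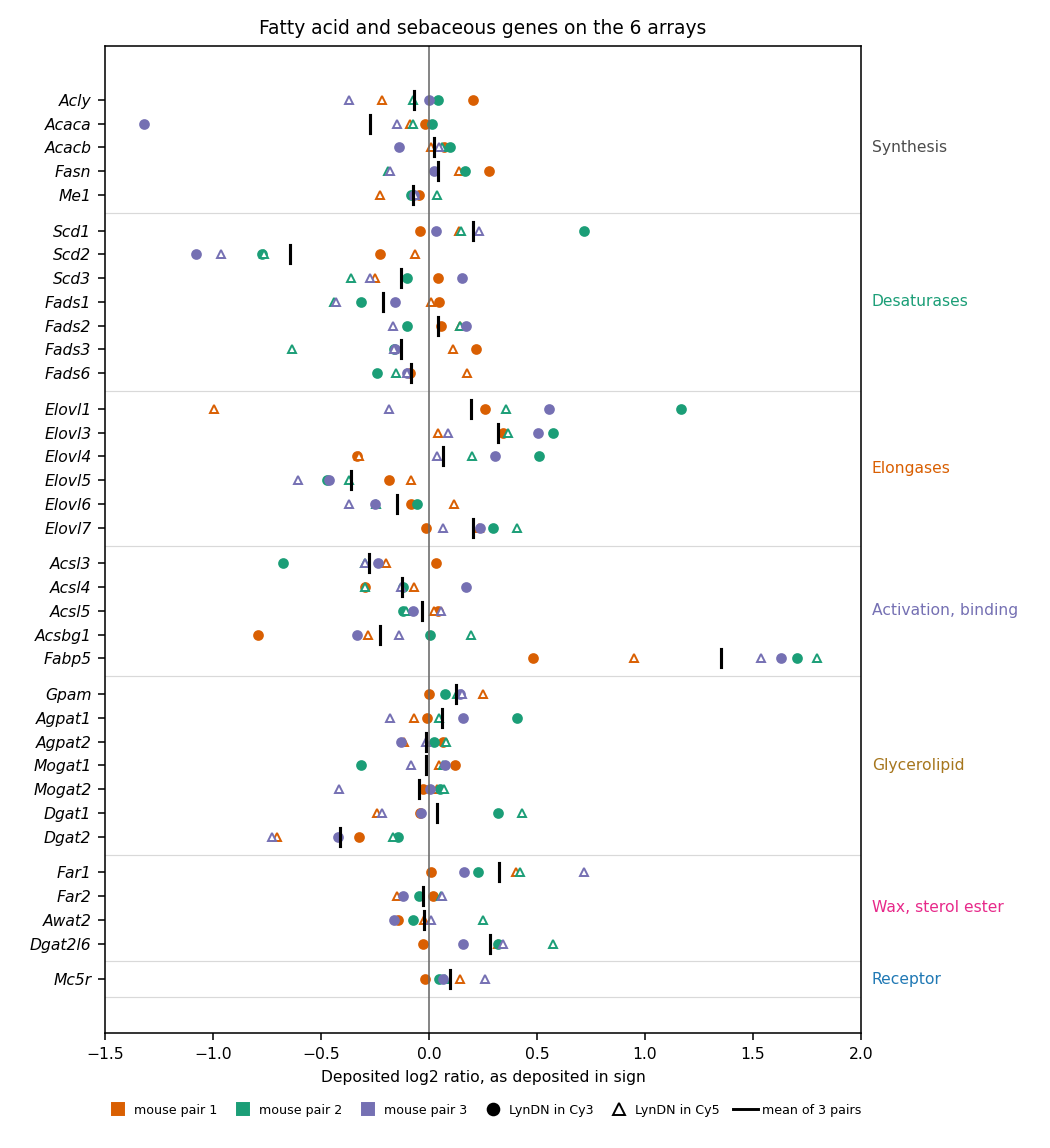
Deposited log2 ratio of each of 35 members on the 6 arrays, grouped by role; colour marks the mouse pair, filled circles the arrays with LynDN in Cy3, open triangles those with LynDN in Cy5, and black bars the mean of 3 pairs. Fabp5 is positive and Scd2, Elovl5 and Dgat2 are negative on all 6 arrays, and the single low Acaca point (-1.32) is an array of pair 3.

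Genes of triglyceride assembly were near zero with 1 exception. Gpam, which adds the first acyl chain to glycerol-3-phosphate, averaged 0.12 ± 0.02 (SD, n = 3; limma adjusted p = 0.408), and its arrays ran from 0.00 to 0.25. Agpat1 and Agpat2, which add the second chain, averaged 0.06 ± 0.15 and -0.02 ± 0.06. The monoacylglycerol acyltransferase genes Mogat1 and Mogat2 averaged -0.01 ± 0.10 and -0.05 ± 0.14.

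The exception was Dgat2, an acyltransferase of the last step that makes triglyceride in skin, fat and liver. It gave -0.33 and -0.70 in pair 1, -0.14 and -0.17 in pair 2, with -0.42 and -0.73 in pair 3. All arrays were negative, and here pair 2, not pair 1, was the closest to zero. The mean was -0.41 ± 0.23 (SD, n = 3), and it passed neither on the pair values (limma adjusted p = 0.282) nor with the pair as a block (adjusted p = 0.0776). Dgat1, which catalyses the same step and is unrelated in sequence, averaged 0.04 ± 0.29, at -0.14, 0.37 and -0.13 in pairs 1, 2 and 3.

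Wax ester genes and the sebocyte receptor lay at or slightly above zero. Far1, a fatty acyl-CoA reductase that makes the fatty alcohol of waxes and ether lipids, gave 0.01 and 0.40 in pair 1, 0.23 and 0.42 in pair 2, with 0.16 and 0.72 in pair 3. These are averages of 2 probes, and in each pair the array with LynDN in Cy5 was the higher. The mean was 0.32 ± 0.12 (SD, n = 3; limma adjusted p = 0.274, and 0.0688 with the pair as a block). The probes disagreed, the first with a mean of 0.62 and the second with 0.02, so the gene mean stands for neither. Each probe was negative on 1 array, at -0.08 for the first in pair 1 and -0.25 for the second in pair 3, so the positive sign on all arrays holds for the average alone. Far2, the other reductase, averaged -0.03 ± 0.03.

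Dgat2l6, an acyltransferase gene related to Dgat2, gave -0.03 and 0.32 in pair 1, 0.32 and 0.57 in pair 2, with 0.16 and 0.34 in pair 3. It was positive on 5 of 6 arrays, with a mean of 0.28 ± 0.15 (SD, n = 3; limma adjusted p = 0.306). Awat2, a wax synthase of sebocytes, averaged -0.02 ± 0.10. Mc5r, the melanocortin receptor that promotes sebum secretion, averaged 0.09 ± 0.06 and was positive on 5 of 6 arrays. Of the 6 measured members that mark sebocytes most closely (Scd3, Mc5r, Awat2, Dgat2l6, Elovl3 and Far2), 3 were positive and 3 negative, with a median of 0.04 and means from -0.13 to 0.32. None of them passed in either fit.

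The windows upstream of 3 member genes are shown, with a negative, a near-zero and a positive mean ratio in turn: Elovl5, Fasn and Dgat2l6. Each is the stretch of 250 bases before the transcription start, 5′ to 3′ on the gene's strand, from RefSeq on GRCm38.p6. At least 1 such window was counted for 26 of 35 members, and none for Fabp5 and Scd2. Member windows on 1 chromosome were left out, while the count over all windows had no such filter. The windows lie at chr9:77917115-77917364 on the plus strand for Elovl5, chr11:120824548-120824797 on the minus strand for Fasn, and chrX:100524588-100524837 on the plus strand for Dgat2l6. Capitals mark matches on either strand to the E-box CACGTG, the CCAAT box CCAAT, the GC box GGGCGG, the TATA box TATAAA and the AP-1 motif TGANTCA.
Elovl5: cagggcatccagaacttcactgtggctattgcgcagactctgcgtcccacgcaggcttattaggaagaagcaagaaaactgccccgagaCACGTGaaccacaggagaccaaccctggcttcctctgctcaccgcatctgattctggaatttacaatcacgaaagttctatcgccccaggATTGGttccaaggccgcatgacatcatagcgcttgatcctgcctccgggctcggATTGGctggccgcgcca
Fasn: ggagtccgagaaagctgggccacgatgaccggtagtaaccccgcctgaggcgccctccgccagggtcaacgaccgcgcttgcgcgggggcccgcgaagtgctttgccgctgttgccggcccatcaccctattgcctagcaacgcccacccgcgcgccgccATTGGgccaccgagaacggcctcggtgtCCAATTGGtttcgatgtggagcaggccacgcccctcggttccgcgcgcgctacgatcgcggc
Dgat2l6: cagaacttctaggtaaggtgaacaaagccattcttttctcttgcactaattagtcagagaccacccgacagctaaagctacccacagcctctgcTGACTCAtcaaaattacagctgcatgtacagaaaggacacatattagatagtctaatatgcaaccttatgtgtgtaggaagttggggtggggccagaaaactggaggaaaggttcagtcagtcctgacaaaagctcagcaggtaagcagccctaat
Elovl5 held an E-box and 2 CCAAT boxes, Fasn held 3 CCAAT boxes, 2 of which overlap, and Dgat2l6 held 1 AP-1 motif. No other member gene with a counted window held an E-box or an AP-1 motif. In these motifs Elovl5 and Dgat2l6 therefore stand for no other negative or positive member. A CCAAT box was found in 45.2% of the 31 member windows and in 33.8% of all 32851 windows, and a GC box in 58.1% and 32.7%. The E-box was in 3.23% of member windows and 6.02% of all, the AP-1 motif in 3.23% and 6.75%, and the TATA box in 3.23% and 12.4%. These matches describe letters in a window and not binding.

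Pair 1 gave other values than both other pairs in some members and in 3 of 4 sex-linked genes. The Y-linked genes Eif2s3y and Kdm5d gave 3.50 and 1.24 there, beside values from -0.05 to 0.13 in both other pairs. A further Y-linked gene, Uty, named after its values were seen, did not follow them, with 0.07, 0.13 and -0.48 in pairs 1, 2 and 3. Xist, expressed from the inactive X chromosome, gave -1.06 in pair 1, beside -0.09 and -0.14. The labels used here do not state the sex of the mice, and sebaceous glands are known to respond to androgens. Fabp5 was 0.71 in pair 1 against 1.75 and 1.58, Scd2 was -0.15 against -0.77 and -1.02, and Elovl5 was -0.13 against -0.42 and -0.53. Among the sebocyte genes, Elovl3 was 0.19 in pair 1 against 0.47 and 0.30, Dgat2l6 was 0.15 against 0.45 and 0.25, Mc5r was 0.06 against 0.06 and 0.16, and Awat2 was -0.08 against 0.09 and -0.08. Scd3 was -0.10 against -0.23 and -0.06, and Far2 was -0.06 against 0.01 and -0.03. No difference between pairs was tested. If the mice of pair 1 differed in sex, sex and genotype cannot be told apart in that pair. The part of sex in these ratios was not tested. Over all rows, the arrays of 1 swap correlated with r = 0.0239 for pair 1, 0.463 for pair 2 and 0.462 for pair 3 (Spearman -0.18, 0.127 and 0.155), as a description, since genes are not independent.

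**Figure D3:**
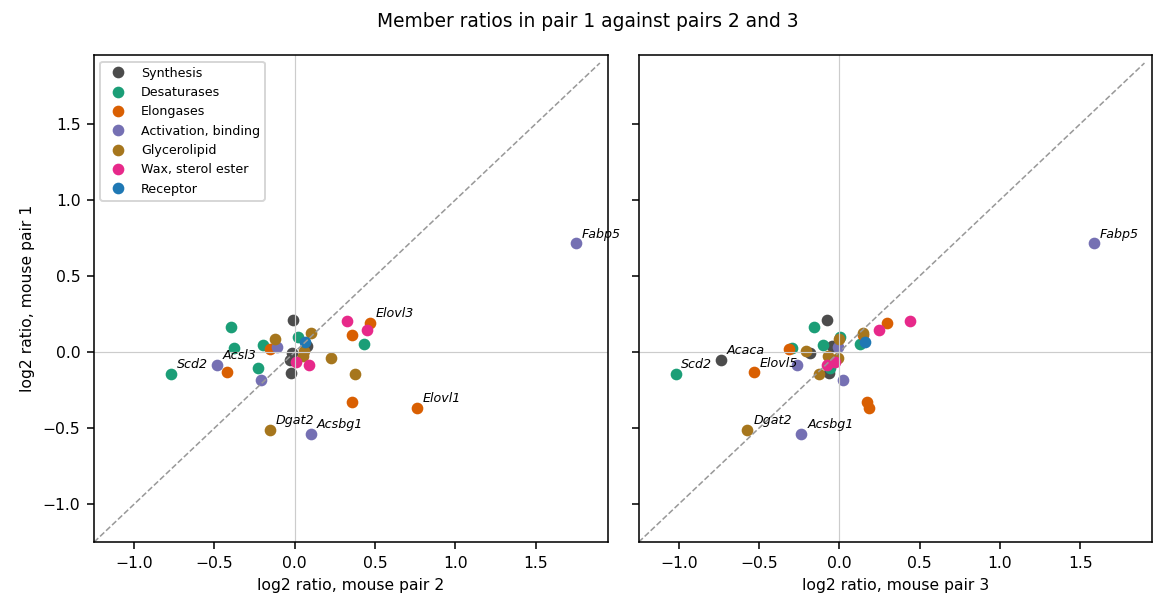
Log2 ratio of each of 35 members in mouse pair 1 (vertical axis) against pair 2 (left) and pair 3 (right), each the mean of 2 arrays, coloured by role, with the line of equal ratios dashed. Fabp5 (0.71 in pair 1, 1.75 and 1.58 in the others) and Scd2 (-0.15, -0.77 and -1.02) lie nearer to zero in pair 1, and Dgat2 does not.

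The regulators of lipid synthesis showed no shared side. Of 21 measured regulators, 11 were positive and 10 negative, with a median of 0.00, and none passed in either fit. Without pair 1, 1 of 21 regulators passed, on the negative side, where 1.67% of all rows passed. Thrsp, a nuclear protein of lipogenic tissues, had -0.45 ± 0.21 (SD, n = 3), was negative on 6 of 6 arrays and did not pass with the pair as a block (adjusted p = 0.0504; limma adjusted p = 0.278 on the pair values). Insig1, the sterol-dependent anchor of SREBP, had -0.40 ± 0.22 and was negative on 6 of 6 arrays. Scap, the SREBP escort, had 0.24 ± 0.10, and the coactivator gene Ppargc1b had 0.23 ± 0.12. Srebf1, which encodes the main driver of fatty acid synthesis genes, had -0.09 ± 0.11, and Pparg, a regulator of adipocytes and sebocytes, had 0.00 ± 0.06.

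Other sebaceous gland markers were also divided, with 10 of 19 positive and a median of 0.00. The lipid hydrolase genes Pnpla3 and Acot2 had -0.24 ± 0.04 and -0.24 ± 0.11, and both were negative on 6 of 6 arrays. The fatty acid transport gene Slc27a4 had 0.26 ± 0.13, the steroid side-chain cleavage gene Cyp11a1 had 0.31 ± 0.25, and the droplet coat gene Plin2 had 0.21 ± 0.16. None of these passed in either fit, with limma adjusted p from 0.278 to 0.384. Without pair 1, 2 of 19 sebaceous gland markers passed as positive and 0 as negative. In that fit 3.22% of all rows passed as positive and 1.67% as negative. Fatty acid oxidation genes, the opposing pathway, had a median of -0.05 over 21 genes, with means from -0.21 to 0.10 and no pass. Its smallest p belonged to Acaa2, the thiolase of the last step, at -0.21 ± 0.12 (limma adjusted p = 0.339), followed by the trifunctional protein gene Hadha with -0.13 ± 0.01, the electron carrier gene Etfa with -0.11 ± 0.05 and the carnitine acyltransferase gene Cpt2 with -0.08 ± 0.02. These SDs leave out differences within a dye swap, which reached 0.81 for Hadha, 0.53 for Etfa and 0.37 for Cpt2.

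Markers of other skin cells that hold these enzymes varied by pair. Dermal adipocytes also express Scd2, Dgat2 and Thrsp, and 11 of 16 adipocyte markers were negative, with list medians of 0.15, -0.23 and -0.17 in pairs 1, 2 and 3. The adipokine gene Lep had -0.55 ± 0.44 (SD, n = 3) and Adipoq had -0.23 ± 0.41, while the lipase gene Pnpla2 had 0.29 ± 0.16 and Pck1 had 0.30 ± 0.19. Beside these medians, Scd2 gave -0.15, -0.77 and -1.02 in pairs 1, 2 and 3, and Dgat2 gave -0.51, -0.15 and -0.57. No adipocyte marker passed in either fit. Without pair 1, where Scd2 passed, 3 of 16 adipocyte markers passed on the negative side, beside 1.67% of all rows. The part of adipocytes in the ratios of Scd2 and Dgat2 was not tested.

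Elovl3 is also expressed in hair follicles, and 10 of 12 hair follicle markers were negative, with list medians of 0.07, -0.75 and -0.63. The hair keratin genes Krt34 and Krt33a had -0.68 ± 0.25 and -0.98 ± 0.44 and passed with the pair as a block (adjusted p = 0.0237 and 0.0319), beside 0.459% of all rows negative. Krt31 and Krt32 had -0.51 ± 0.33 and -0.41 ± 0.35 without passing. Elovl3 lay on the opposite side from these keratins. The part of hair follicles in the ratio of Elovl3 was not tested.

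Differentiated epidermis markers were negative in 7 of 11 genes and positive in 4. The highest was Krtdap with 0.63 ± 0.71, at -0.15, 1.24 and 0.81 in pairs 1, 2 and 3. Among the negative ones, Lor and Flg had -1.67 ± 0.45 and -2.23 ± 0.86 and passed with the pair as a block (adjusted p = 0.00544 and 0.0198). Ivl and Dsc1 had -0.39 ± 0.17 and -0.46 ± 0.26 and did not pass. Skeletal muscle markers were negative in 9 of 11 genes, with medians of -0.01, -0.58 and -0.69 in pairs 1, 2 and 3, and the 4 with the smallest p were Actn3 with -0.62 ± 0.33, Myl1 with -0.55 ± 0.30, Tnni2 with -0.57 ± 0.46 and Myh4 with -1.20 ± 1.05. Macrophage markers were positive in 13 of 14 genes, with medians of -0.06, 0.50 and 0.78. Cd14, Cd53, Fcgr3 and Cd163 had 0.36 ± 0.28, 0.65 ± 0.61, 0.65 ± 0.62 and 0.41 ± 0.39. No muscle or macrophage marker passed in either fit. Without pair 1, 8 of 12 hair follicle, 6 of 11 differentiated epidermis and 5 of 11 muscle markers passed on the negative side. On the positive side, 1 differentiated epidermis marker and 10 of 14 macrophage markers passed there. In that fit 1.67% of all rows passed as negative and 3.22% as positive.

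**Figure D4:**
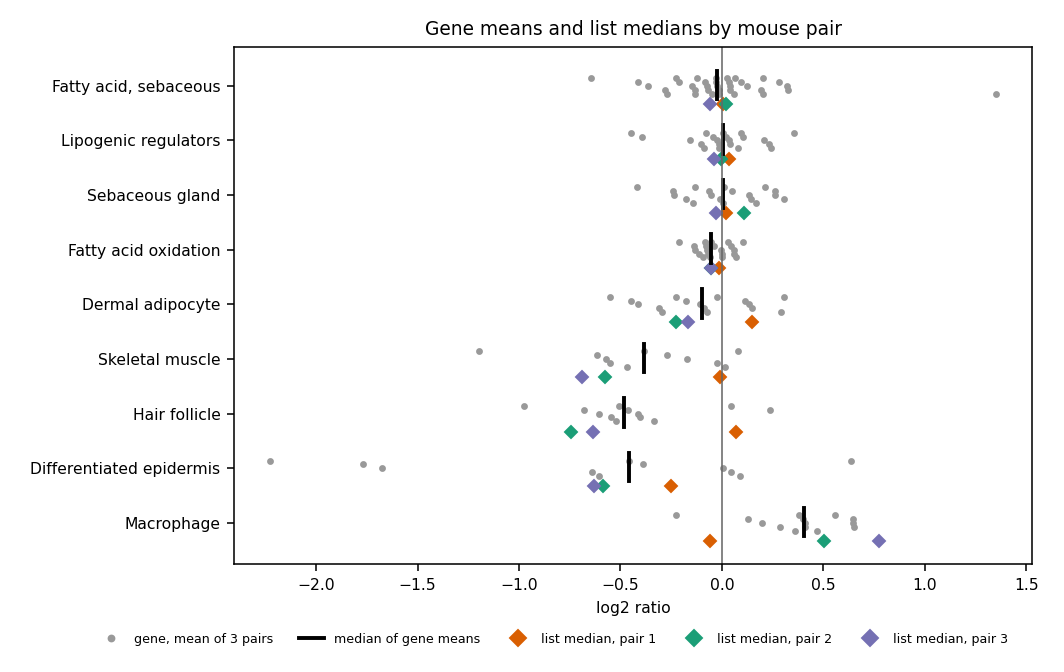
Mean log2 ratio of each gene (grey points), median of those means (black bar) and list median in each mouse pair (diamonds) for the 35 fatty acid and sebaceous genes and 8 companion lists. The medians of the first list lie between -0.06 and 0.02 in all pairs, whereas those of hair follicle markers run from -0.75 to 0.07 and those of macrophage markers from -0.06 to 0.78.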

How the data were processed

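Total RNA from mouse skin was extracted with Qiagen and labelled with Ambion reagents, with Cy3 always as channel 1, per the labels' protocols. The authors deposited 1 log2 ratio per probe and array (base 2 assumed); for scanner, background correction, normalization and numerator, the method is not given in the sources used here. Of 25344 probes, 21082 had 1 symbol in the platform annotation, 30 had several and 4232 had none. Probes of 1 symbol were averaged per array; others stayed as unnamed rows.

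Both arrays of a swap carry the RNAs of the same mice, per the labels, which is where the pairing comes from, and their average gave 3 pair values. In R 4.3.3, limma 3.58.1 (lmFit, eBayes) compared the mean pair value with 0; p-values were adjusted by Benjamini-Hochberg across the 22879 rows (threshold 0.05). The alternative fit used 6 arrays, a dye term and the pair as a random block (duplicateCorrelation, correlation 0.151). It gives every row that correlation, so for genes that vary mostly between pairs its passes are weaker than those on pair values. SDs are over pair values and leave out differences within a dye swap.

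The members and companion lists were chosen with earlier results of these data known, so no p was adjusted over a list and no list test was run. Members were named with array values where they passed in a fit, were among the 12 smallest p or the 8 largest absolute means; from each companion list, genes passing in a fit and the 4 smallest p. Acaca, Elovl1, Plin2, Srebf1, Pparg, Adipoq and Krtdap were named with values after these were seen. Fasn and Scd3 were also given with array values outside this rule. Other alternatives were quantile normalization, median centring, probe medians, single probes, named rows, 2 moderation settings, each pair left out, and 1 array of another label day left out. A filter on dim probes was not run, since no intensities were used. Promoter windows came from RefSeq (GRCm38.p6). Figures used matplotlib 3.10.9.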

Additional observations from a re-analysis of the deposited data

Results flagged for a closer look

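Acly, the citrate-cleaving enzyme, lay on opposite sides of zero by dye. Its mean was 0.08 on the 3 arrays with LynDN in Cy3, all positive, and -0.22 on the 3 with LynDN in Cy5, all negative, a difference of -0.30 (Cy5 minus Cy3; dye term adjusted p = 0.148 in limma). Of all rows, 11.4% showed such a split.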

How the results depend on the processing

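Under all alternatives together, Fabp5, Scd2 and Elovl5 were the members that passed in any. The count of rows passing was 4 on the pair values, 243 with the mouse pair as a block, 72 after quantile normalization, 0 without variance moderation (1752 at an unadjusted p under 0.05), and 2 to 1117 when 1 pair was left out (1117 without pair 1, 2 without pair 2). Members passing were 0 on the pair values, 1 with the block (Fabp5), 1 after quantile normalization (Fabp5, 1.29) and 0 to 3 with a pair left out. Of 128 companion genes, 0 passed on the pair values, 4 with the block, 1 after quantile normalization and 0 to 36 with a pair left out, 36 without pair 1. The block changed the call of no other member. The median over members lay between -0.048 and 0.0022 under the alternatives. Signs turned for some members near zero or uneven between pairs. Acacb was -0.021 by its first probe, and Fads2 was -0.00064 without the array of another label day. With 1 pair left out, ranges crossed zero for Fasn (-0.045 to 0.10), Awat2 (-0.080 to 0.0064), Acacb (-0.0028 to 0.059), Fads3 (-0.28 to 0.0033), Elovl1 (-0.092 to 0.47), Elovl4 (-0.078 to 0.26), Acsl5 (-0.061 to 0.011), Agpat1 (-0.025 to 0.11), Mogat1 (-0.064 to 0.040), Dgat1 (-0.13 to 0.12), Agpat2 (-0.048 to 0.012) and Mogat2 (-0.10 to 0.031). The spread rests on 3 mouse pairs, and signal over background was not examined.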
